A study of Homo sapiens with 8 samples.

Results

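Across 6 H3K4me3 peak lists from U2OS clones, 338 regions were called in WT replicates 2 and 3 and in ZBTB48 KO replicate 1, and in none of the other 3 libraries, which were WT replicate 1 and KO replicates 2 and 3. They were drawn from 30268 regions on chromosomes 1 to 22, of which they made up 1.12%. The regions were selected on the calls themselves, so the call pattern and the strength of the peaks in the 3 calling lists are given as descriptions and carry no test. A region was the union of overlapping or touching peaks over the 6 lists, and a call was an overlap of at least 1 bp with a peak of that library. The pattern cuts across the genotypes, with clones of both on either side. It therefore shows what calls that differ between clones or lists look like when the genotype does not separate them.

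U2OS is a human osteosarcoma cell line. WT clones and clones with knockout of ZBTB48, known as a telomere-binding zinc finger factor that also occupies some promoters, had all been given interferon gamma (IFNγ) at 250 U/ml for 24 h, so the WT clones carried the treatment as well and no untreated library was among the samples. Each genotype had 3 libraries and every library came from a separate clone, so that clone, library and peak list cannot be told apart. The 2 WT input libraries were not analysed here. ChIP-seq gave 1 list of broad peaks per library, without read counts, and the depth behind a peak is therefore unknown here.

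H3K4me3, the trimethylated form of lysine 4 on histone H3, is laid down by SET domain methyltransferases around the start sites of active and poised genes. It is strongest and broadest at promoters rich in CpG dinucleotides, where CpG-binding subunits help to recruit the enzymes. Weaker and narrower H3K4me3 is also found at enhancers, which are marked mainly by the monomethylated form. In cells given IFNγ the mark is also gained at promoters of interferon-inducible genes, among them CIITA, the transactivator of the MHC class II genes.

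The 5 highest ranked members are shown first by the 200 bp at their centre, because they are the members least near the detection limit of the calling lists. Members were ranked by the lowest of their percentiles of −log10 p within the 3 calling lists. The sequences are the plus strand of GRCh38 in lower case, with each CpG, the dinucleotide that typical H3K4me3 promoters are rich in, in capitals. They are the member at the GSTO2 promoter (chr10:104268650-104268849), the member inside ABCA13 (chr7:48455309-48455508), the member at the CALHM2 promoter (chr10:103451825-103452024), the intergenic member nearest to ADRB1 (chr10:114101001-114101200) and the member in the pseudogene DMBT1L1 (chr10:122818598-122818797).
GSTO2: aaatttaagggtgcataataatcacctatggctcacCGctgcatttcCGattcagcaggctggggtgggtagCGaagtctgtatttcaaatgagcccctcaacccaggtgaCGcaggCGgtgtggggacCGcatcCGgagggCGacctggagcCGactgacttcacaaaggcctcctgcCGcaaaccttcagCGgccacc
ABCA13: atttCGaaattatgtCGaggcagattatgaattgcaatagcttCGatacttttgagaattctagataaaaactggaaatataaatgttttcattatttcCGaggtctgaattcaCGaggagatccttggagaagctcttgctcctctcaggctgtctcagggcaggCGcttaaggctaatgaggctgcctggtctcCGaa
CALHM2: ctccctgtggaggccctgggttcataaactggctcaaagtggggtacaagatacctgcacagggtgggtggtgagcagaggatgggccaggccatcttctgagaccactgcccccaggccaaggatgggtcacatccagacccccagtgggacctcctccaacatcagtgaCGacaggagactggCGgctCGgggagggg
ADRB1: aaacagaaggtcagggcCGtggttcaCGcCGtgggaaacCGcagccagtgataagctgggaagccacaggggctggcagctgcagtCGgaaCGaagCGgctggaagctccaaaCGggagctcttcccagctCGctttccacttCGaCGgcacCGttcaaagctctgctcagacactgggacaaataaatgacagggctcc
DMBT1L1: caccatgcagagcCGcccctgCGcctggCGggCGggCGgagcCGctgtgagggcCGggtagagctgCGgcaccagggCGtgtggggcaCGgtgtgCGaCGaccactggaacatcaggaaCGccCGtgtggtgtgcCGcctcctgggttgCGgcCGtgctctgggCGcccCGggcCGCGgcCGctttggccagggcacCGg
CpGs were spread unevenly over these windows, with 23 in the DMBT1L1 sequence, 12 in the ADRB1 sequence, 11 in the GSTO2 sequence, 7 in the ABCA13 sequence and 3 in the CALHM2 sequence.

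Over the central 300 bp the median member held 6 CpGs and 48.3% GC, beside 10 CpGs and 54.7% GC for all regions. Some similar regions were alike in this and others were not. Distal regions called in 2 to 4 libraries had medians of 6 CpGs and 49.3% GC, and distal WT-only regions 5 CpGs and 45.3% GC. Distal members had 6 CpGs and 48.0% GC, while distal KO-only regions had 7.5 CpGs and 54% GC. A ratio of observed to expected CpG above 0.6, a usual mark of a CpG island, was reached by 12.7% of the members and by 38.3% of all regions. Among distal regions, those not at a promoter, the share was 11.6% of the members and 23.2% of all such regions, and 20% and 23.8% of the WT-only and KO-only ones.

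The letters TGANTCA, which read the same on both strands and are the consensus of the AP-1 family of FOS and JUN dimers, stood in the central 300 bp of 85 members. That was 25.1% of the members beside 10.7% of all regions. Among distal regions the share was 25.9% of the members, 22.4% of the WT-only regions, those with calls from the 3 WT libraries and no other, 18.8% of the regions called in 2 to 4 libraries, 14.8% of all distal regions, 12.5% of the KO-only regions, their counterpart, and 10.2% of the distal regions called in all 6 libraries. The motif was looked for after other features of the members had been seen, and a match describes these letters only. None of the 28 members named by rule below held it. The following 4 were chosen after their values were seen, from the higher ranked members that hold the motif, to show it in place. They are given with the plus strand of GRCh38 in lower case and the motif in capitals, from an intergenic member nearest to CDC5L (chr6:44456853-44456903) and from members inside ART3 (chr4:76042410-76042460), TIAM2 (chr6:155224183-155224230) and EPHA5 (chr4:65513312-65513362).
CDC5L: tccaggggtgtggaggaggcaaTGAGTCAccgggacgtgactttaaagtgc
ART3: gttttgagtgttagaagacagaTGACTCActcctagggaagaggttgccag
TIAM2: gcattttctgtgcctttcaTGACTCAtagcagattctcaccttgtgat
EPHA5: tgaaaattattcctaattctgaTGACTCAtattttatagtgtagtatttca
The telomeric repeat unit TTAGGG, which ZBTB48 binds in tandem arrays, was found on either strand in 36 members, 10.7% of them, beside 9.36% of all regions.

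The pattern was common among calls in 3 libraries. WT-only regions numbered 96 and KO-only regions 85. The mirror image, regions called only in WT replicate 1, KO replicate 2 and KO replicate 3, numbered 23. Just outside the rule, 432 regions had a call in WT replicate 1 as well, 188 in KO replicate 2 as well and 82 in KO replicate 3 as well. Regions that missed a call in WT replicate 2 numbered 704, those that missed WT replicate 3 numbered 344 and those that missed KO replicate 1 numbered 140. In comparison, 17298 regions, 57.1%, were called in all 6 libraries.

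The lengths of the lists moved with the pattern. The 3 lists that called the members were the 3 longest, with 25545 peaks in KO replicate 1, 23684 in WT replicate 3 and 22012 in WT replicate 2. The 3 lists without a call held 21673 peaks (WT replicate 1), 21288 (KO replicate 3) and 21025 (KO replicate 2). When each list was reduced to its 21025 peaks of highest −log10 p, 76 regions had the pattern, the mirror image had 74, the WT-only pattern 100 and the KO-only pattern 78. The member pattern was thus as frequent as its mirror image at equal list length, whereas with the lists as deposited it was the most frequent of the 4. The reduction drops the weakest peaks, and most of them from the longest lists, so calls of weak members are lost by construction. The part of list length in the pattern was not tested.

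**Figure D1:**
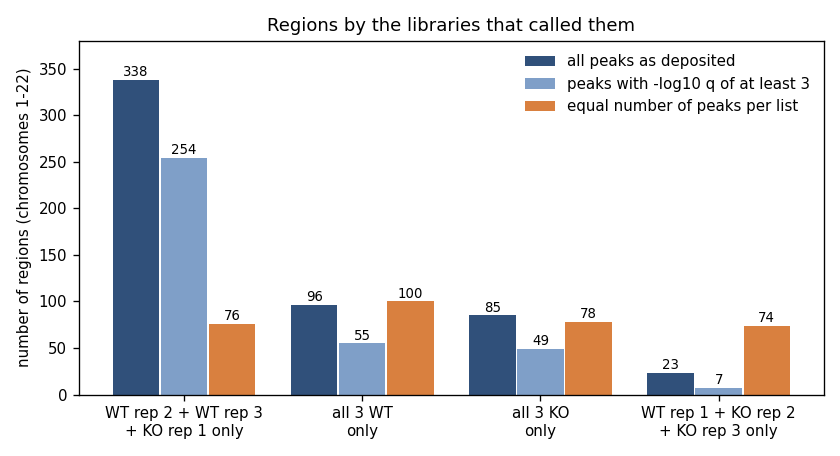
Number of regions on chromosomes 1 to 22 (vertical axis) called in exactly the libraries named on the horizontal axis, from all peaks as deposited, from peaks with −log10 q of at least 3 and from an equal number of peaks per list. The pattern of the members is held by 338, 254 and 76 regions, and the mirror image by 23, 7 and 74. Of the 338 members, 68 overlap a region of the pattern at −log10 q of at least 3 and 68 at equal list length.

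Of the 338 members, 68 overlapped a region that kept the pattern at equal list length, which is 20.1%. A peak remained at 244 members in WT replicate 2, at 195 in WT replicate 3 and at 141 in KO replicate 1, and 29 members had no peak left in any list. The 68 that kept the pattern included all of the 10 highest ranked members and 6 of the 10 members at a promoter. The remaining 8 of the 76 regions did not overlap a member.

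The median fold enrichment of the lists followed another division. It was 13.6 and 14.1 in WT replicates 1 and 2 and lay between 4.18 and 4.63 in the other 4 lists, so that the members were called in 1 list of the first kind and 2 of the second. For that reason peak strengths are compared between lists only as percentiles within a list, where 0 is the weakest peak.

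In the calling lists the members were weak peaks. In WT replicate 2 the −log10 p of a member ranged from 2.96 to 44.1 with a median of 4.62, beside a median of 71.2 over the list. In WT replicate 3 it ranged from 3.25 to 37.5 with a median of 5.03, beside 30.6 over the list. In KO replicate 1 it ranged from 3.24 to 43.0 with a median of 5.89, beside 33.4 over the list. All but 3 of these values lay below the median of their own list, the exceptions being 1 in WT replicate 3 and 2 in KO replicate 1.

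As percentiles within the list the medians were 8.46 in WT replicate 2, 12.4 in WT replicate 3 and 15.5 in KO replicate 1. In WT replicate 2, 192 members fell below the 10th percentile, against 129 in WT replicate 3 and 111 in KO replicate 1. The highest of a member's 3 percentiles came from KO replicate 1 in 170 members, from WT replicate 3 in 112 and from WT replicate 2 in 56. The members thus stood lowest in WT replicate 2, the shortest of the 3 calling lists.

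**Figure D2:**
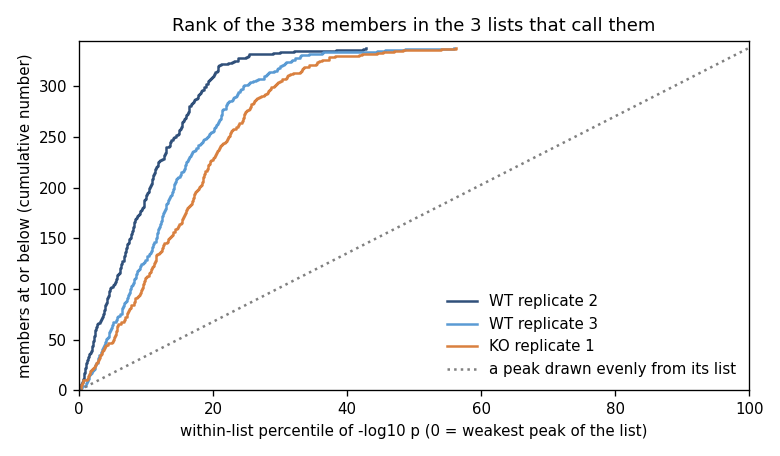
Cumulative number of the 338 members (vertical axis) at or below a within-list percentile of −log10 p (horizontal axis), for each of the 3 lists that call them, with a dotted line for peaks spread evenly over a list. The 3 curves lie far to the left of that line, with medians of 8.46, 12.4 and 15.5.

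A member's lowest percentile over the 3 lists had a median of 4.94 and ran from 0.0921 to 42.3. It was above 10 in 76 members, above 20 in 9 and above 40 in 2. The same median was 5.18 for WT-only regions, 4.06 for KO-only regions, 2.81 for the mirror image and 52.7 for regions called in all 6 libraries. The members were therefore ranked near the other patterns of 3 calls and far from the shared regions. A −log10 q of at least 3 in all 3 lists was held by 68 members, and a fold enrichment of at least 4 in all 3 by 12.

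The width of the members was that of other regions with few calls. Its median was 816.5 bp and its range 316 to 2718 bp, beside medians of 851 bp for WT-only regions, 807 bp for KO-only regions, 846.5 bp for all regions called in 3 libraries and 1580 bp for all regions. Only 7 members were wider than 2000 bp. In 333 members the peaks of all 3 libraries shared a common stretch, with a median of 313 bp over the 338, while in 5 members they did not all overlap each other.

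Other H3K4me3 lay mostly at a distance from the members. The nearest region called in all 6 libraries was at a median distance of 58.9 kb, and 10 members, 2.96%, had one within 5 kb. That share was 7.81% among all regions not called in all 6 libraries and 12.5% among WT-only regions. It was 8.24% among KO-only regions and 5.88% among all regions called in 3 libraries. The median distance was 51.7 kb for WT-only regions, 35.8 kb for KO-only regions and 50.3 kb for all regions called in 3 libraries. In the 3 libraries without a call, the nearest peak lay at a median of 48.0 kb (WT replicate 1), 50.8 kb (KO replicate 2) and 50.2 kb (KO replicate 3). No member had such a peak within 1 kb, and 14 to 19 members per library had one within 5 kb. The calling libraries gave similar distances to their nearest other peak, with medians of 42.4 kb in WT replicate 2, 39.9 kb in WT replicate 3 and 38.5 kb in KO replicate 1, and 19 to 24 members per library had one within 5 kb.

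Members were seldom at promoters. A promoter, taken as the 1 kb on either side of the 5′ end of the principal transcript of a protein-coding gene, was hit by 10 members, 2.96% (95% Wilson interval 1.61 to 5.36). The share was 39.1% of all regions, 11.5% of WT-only regions, 5.88% of KO-only regions and 5.76% of all regions called in 3 libraries. A further 125 members, 37.0%, lay inside a protein-coding gene, beside 25.6% of all regions, with 109 of them in introns of the principal transcript and 16 touching an exon. Another 70 members, 20.7% beside 13.3%, lay in other annotated genes, such as noncoding RNA genes and pseudogenes. Intergenic were 133, or 39.3%, beside 22% of all regions, 38.8% of KO-only regions and 37.5% of all regions called in 3 libraries. Away from promoters the members were thus placed much like regions with as few calls.

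**Figure D3:**
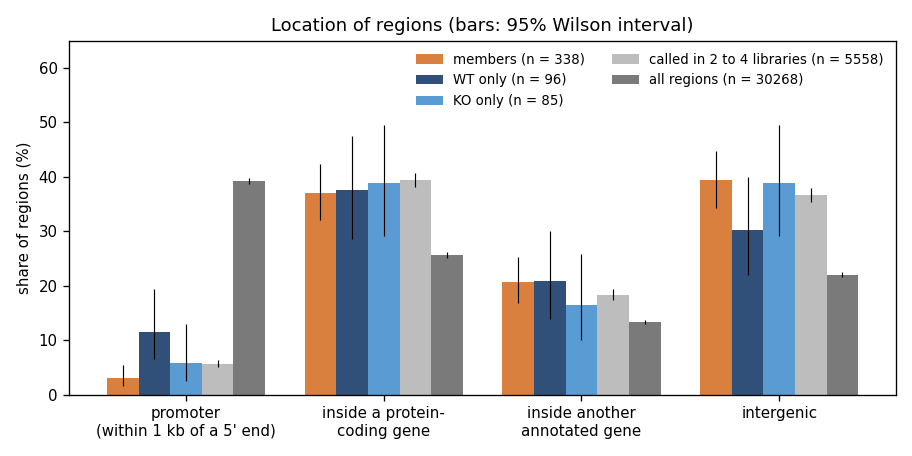
Share of regions in percent (vertical axis) by annotated location (horizontal axis) for the members, WT-only and KO-only regions, regions called in 2 to 4 libraries, which include the members, and all regions, with 95% Wilson intervals. At promoters the members stand at 2.96% beside 39.1% of all regions, and at intergenic positions they stand at 39.3% beside 22%.

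The median distance from a member to the nearest 5′ end of a protein-coding gene was 71.4 kb and the longest 906 kb. For all regions the median was 12.6 kb, for WT-only regions 51.5 kb, for KO-only regions 46.8 kb and for all regions called in 3 libraries 58.6 kb. Over 100 kb away were 133 members, 39.3%, and within 10 kb were 44, 13.0%. When start sites of every annotated transcript, noncoding genes included, were counted, 61 members, 18.0%, had one within 1 kb, beside 54.7% of all regions.

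All 22 chromosomes held members. Chromosome 2 held the most, 41, or 12.1% (95% Wilson interval 9.07 to 16), beside 7.65% of all regions. With an equal number of peaks per list it held 6 of 76 regions of the pattern, or 7.89%. These are too few to show whether the higher share was absent there, and the share of all regions was not computed at that setting. Chromosome 1 followed with 28, or 8.28% beside 8.90% of all regions. Chromosomes 7 and 10 held 26 each, or 7.69% beside 5.85% and 5.09%. Chromosomes 3 and 6 held 24 each, or 7.10% beside 5.55% and 5.56%. Per 1000 regions, chromosome 2 held 17.7 members, chromosome 10 held 16.9 and chromosome 19, which is dense in genes, held 2.48 with 4 members. Chromosome 22 held 3, or 3.69 per 1000, chromosome 15 held 5, or 4.78, and chromosome 12 held 7, or 4.65. Over all 22 chromosomes the rate was 11.2 per 1000. Regions more like the members differed from all regions in the same direction on some of these chromosomes. Of all distal regions, chromosomes 2, 7, 10 and 19 held 8.15%, 6.43%, 5.71% and 4.08%. Of regions called in 2 to 4 libraries, which include the members, they held 8.76%, 5.96%, 5.78% and 3.74%.

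The libraries themselves were much alike on these chromosomes once the members were taken out. Chromosome 2 then held 7.17%, 7.34% and 7.64% of the peaks of WT replicates 1, 2 and 3 and 7.43%, 7.20% and 7.26% of those of KO replicates 1, 2 and 3. The 3 calling libraries were thus the highest there, by less than a percentage point. On chromosome 10 the shares were 4.73%, 4.68% and 4.99% in the WT lists and 4.76%, 4.78% and 4.73% in the KO lists, with no such order. The part of these library differences in the member count was not tested.

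**Figure D4:**
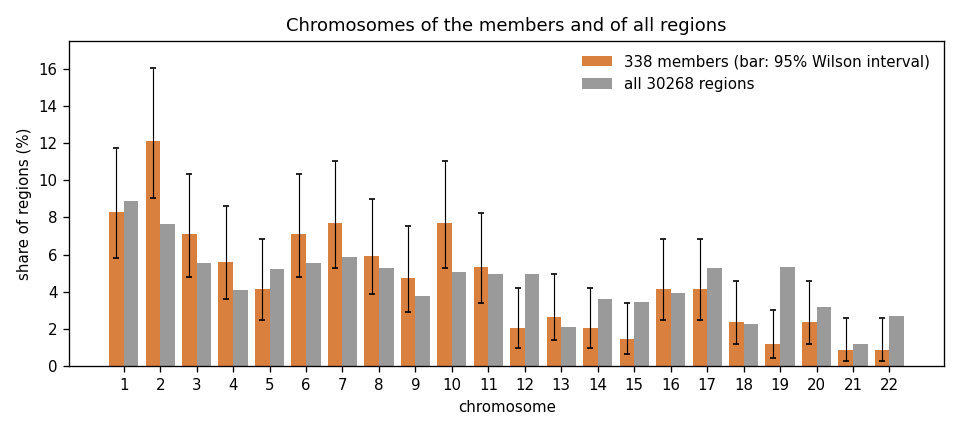
Share in percent (vertical axis) of the 338 members, with 95% Wilson intervals, and of all 30268 regions on each chromosome (horizontal axis). On chromosome 2 the members stand at 12.1% beside 7.65% of all regions, and on chromosome 19 at 1.18% beside 5.34%, with all peaks as deposited.

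Members were scattered along the chromosomes. The median gap between neighbouring members was 4.47 Mb, and 330 members had no other within 100 kb. The remaining 8 formed 4 pairs. One pair lay in LHFPL3 and in the neighbouring KMT2E on chromosome 7, another in the antisense gene ERCC6L2-AS1 on chromosome 9, and another in RALYL on chromosome 8. The last pair lay by EHF and ELF5, neighbouring ETS family genes known from epithelial cells, on chromosome 11. Cut into windows of 20 Mb, the genome held most members at 80 to 100 Mb of chromosome 9, with 9 among 210 regions.

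Of the 5 members with the highest lowest percentiles, 4 lay on chromosome 10, which held 5.09% of all regions. At the promoter of GSTO2, a glutathione transferase of the omega class, the member spanned chr10:104267654-104269846 and overlapped the 5′ end of the gene. Its −log10 p was 42.5 in WT replicate 2, 23.4 in WT replicate 3 and 28.1 in KO replicate 1, and its lowest percentile, 42.3, was the highest of all members. The nearest peaks in the 3 lists without a call lay 4.68 kb, 4.95 kb and 5.02 kb away in WT replicate 1, KO replicate 2 and KO replicate 3. A peak near the middle of the 3 calling lists was thus not called in 1 WT and 2 KO clones.

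The member inside ABCA13, a gene of the ABC transporter family, touched an exon at chr7:48454588-48456230. It had −log10 p of 44.1, 37.5 and 21.1 in WT replicate 2, WT replicate 3 and KO replicate 1. The nearest region called in all 6 libraries was 356 kb away, while the nearest peaks in the lists without a call lay at 359 kb in WT replicate 1, 26 kb in KO replicate 2 and 26.1 kb in KO replicate 3. The member at CALHM2, of the calcium homeostasis modulator channels, spanned chr10:103450684-103453165 over the 5′ end with −log10 p of 31.5, 15.3 and 24.4. At 2482 bp it was the second widest of the members. In WT replicate 3 its percentile was 36.4, the lowest of its 3.

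Chromosome 10 also held an intergenic member at chr10:114100407-114101795, 56.5 kb from ADRB1, the beta-1 adrenergic receptor. Its −log10 p was 19.2, 28.3 and 21.7 in the same order of libraries. The member in DMBT1L1, a transcribed pseudogene, lay at chr10:122818134-122819262 with −log10 p of 16.1, 10.6 and 30.2. Both fell below the median of all 3 lists, with lowest percentiles of 32.1 and 29.5.

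The next 5 members by rank were distal. A member in LINC01509 on chromosome 9, 64.0 kb from KLF4, a transcription factor of epithelial and pluripotent cells, had −log10 p of 10.3, 13.7 and 15.2. The others lay in PLCB4, a phospholipase C, 89.9 kb from KLF13, 65.6 kb from CCDC167 and 4.71 kb from FOXD3, a forkhead factor of the neural crest. Their lowest percentiles ran from 20.0 for the one by FOXD3 to 21.2 for the one in PLCB4. The member nearest to CCDC167 was uneven across libraries, with −log10 p of 9.90, 6.85 and 39.2. Within its lists it stood at percentiles of 23.1, 20.5 and 54.0, highest in KO replicate 1.

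The other 8 promoter members ranked lower. At CARMIL2, a regulator of actin capping, −log10 p was 5.37 in WT replicate 2, 15.2 in WT replicate 3 and 43.0 in KO replicate 1, the highest value of any member in that library. At KLRG2, of the C-type lectin family, it was 14.9, 12.7 and 4.33. By percentile within the list, CARMIL2 stood lowest in WT replicate 2, at 11.9, and highest in KO replicate 1, at 56.3, whereas KLRG2 stood lowest in KO replicate 1, at 7.14, and highest in WT replicate 3, at 33.0. The members at MYOM3, a protein of the sarcomeric M-band, at KCNMB2, a subunit of calcium-activated potassium channels, at RXFP3, the receptor of relaxin-3, and at VWA7, NWD1 and SCG2 had lowest percentiles from 0.561 at SCG2, a secretogranin, to 11.1 at MYOM3. The CpG ratio was above 0.6 in 5 of the 10 promoter members, beside 61.7% of all promoter regions. The widest members were an intergenic region 328 kb from FKBP1C, of 2718 bp, that at CALHM2 and one of 2238 bp in PLAT, the tissue plasminogen activator.

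Host genes were spread. The members lay at the promoter of or inside 134 protein-coding genes, of which 4 held 2 members each, namely C10orf90, PTPRN2, RALYL and SHROOM3. No member lay at or in any of 5 ZBTB48 target genes, 14 MHC class II genes, 24 interferon response genes or 15 osteoblast genes. All regions together had few there as well, with 0.0198%, 0.0463%, 0.0760% and 0.0429% of regions on these lists. The member nearest to CIITA was 0.762 Mb from its 5′ end on chromosome 16, where 14 members lay.

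One member, 0.296%, had an interferon response gene as its nearest start site, beside 0.109% of all regions. Counted in the same way, the ZBTB48 target, MHC class II and osteoblast lists had 0 members. All regions had few there as well, with 0.0198%, 0.0727% and 0.0760%. The member by an interferon response gene lay inside ART3 at chr4:76042128-76042654, 6.06 kb from the 5′ end of CXCL11, an interferon-inducible chemokine. It is the ART3 member whose AP-1 letters are printed above. Its −log10 p was 7.84 in WT replicate 2, 6.18 in WT replicate 3 and 10.4 in KO replicate 1.

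By gene family, potassium channel genes held 3 members, KCNH1, KCNH7 and KCNMB2, which is 0.888% beside 0.545% of all regions. Counting the nearest start site in place of the host gene, potassium channels took 7 members, 2.07% beside 0.862% of all regions. Genes with symbols starting in HOX, FOX, SOX, PAX, TBX, LHX or NKX, which encode developmental transcription factors, were counted as well. They were the nearest start site of 9 members, 2.66% beside 1.62% of all regions. Among the 9 were the member 4.71 kb from FOXD3 and the one 343 kb from SOX9, a factor of cartilage formation. Homeobox genes with other symbols were not counted, and shares by nearest start site were not computed for distal regions alone.

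Genes whose symbols start with a zinc finger prefix (ZNF, ZSCAN, ZKSCAN or ZFP) held 1 member, in ZFPM2, which is 0.296% beside 2.01% of all regions and 0.792% of all distal regions. Zinc finger genes with other symbols were not counted. Cadherin and protocadherin genes held 1, in CDH4, or 0.296% beside 0.403% of all regions. Collagen genes held 1 as well, in COL4A2, beside 0.261% of all regions, so neither count stood apart. Solute carrier names held 3, all antisense genes, 0.888% beside 1.43%. Long intergenic RNA genes held 15, 4.44% beside 3.65% of all regions and 5.99% of all distal regions.

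The promoters nearest to the distal members gave a measure that the rule had not used. The 328 distal members had 313 different nearest promoters, of which 309 did not overlap a member in their window of 3 kb on either side. The mean length under peaks in that window was 2509, 2551 and 1658 bp in WT replicates 1, 2 and 3 and 1631, 1436 and 1376 bp in KO replicates 1, 2 and 3. WT replicates 1 and 2 stood high, whereas WT replicate 3 lay close above KO replicate 1.

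The groups did not overlap, at 2239 ± 504 bp for WT and 1481 ± 133 bp for KO (SD, n = 3 each). The difference was 759 bp by a two-sided exact permutation test, p = 0.1, the smallest value that 3 against 3 libraries allow. The third WT clone by itself lay 177 bp over the mean of the KO clones. The pair of WT lists with high fold enrichment was also the pair with long cover, and the part of the list kind in the difference was not tested. The 3 libraries that called the members did not stand together on this measure.

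Of the 243 such promoters with any cover, all 3 WT values exceeded all 3 KO values at 124, or 51.0%. Over all promoters with any cover the share was 51.0% of 13908. The reverse order was found at 1 of the 243, beside 0.115% of all. Promoters near members thus had all WT values above all KO values as often as promoters elsewhere. The same order held for the median peak width of the whole lists. It was 2310, 2365 and 1483 bp in WT replicates 1, 2 and 3 and 1385, 1375 and 1271 bp in KO replicates 1, 2 and 3. The part of this list-wide width in the order at promoters was not tested. The promoters near members were called in all 6 libraries in 217 of 309 cases, 70.2%, beside 65.8% of 19111 promoters.

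**Figure D5:**
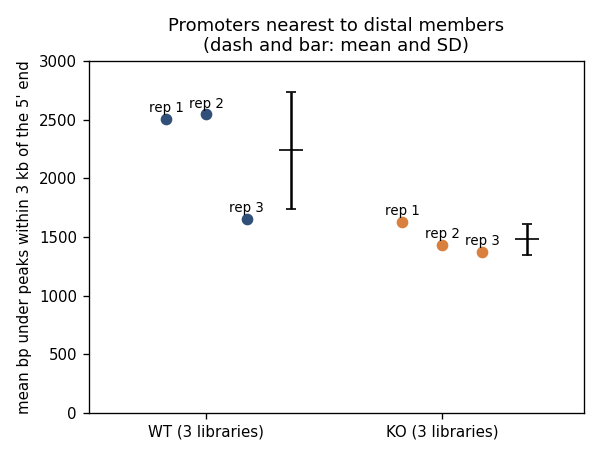
Mean length in bp under peaks within 3 kb of the 5′ end (vertical axis) over the 309 promoters nearest to distal members, 1 point per library, with the mean and SD of each genotype (horizontal axis). WT replicates 1 and 2 lie at 2509 and 2551 bp, while WT replicate 3, at 1658 bp, lies close to KO replicate 1 at 1631 bp.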

How the data were processed

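H3K4me3 ChIP-seq peak lists of 3 WT and 3 ZBTB48 KO clones of U2OS were grouped by genotype and replicate number in the labels. As the methods state, adapters were trimmed by the authors and reads were mapped to GRCh38. They kept uniquely mapped, deduplicated ones and made a separate broad peak list per library. The submitters' processing notes name Bowtie2 2.3.5.1 and MACS2 2.1.1.2. Use of an input as control in peak calling is not given per list in the sources used here. Each deposited list holds a score, which was not used, the authors' fold enrichment ratio over the local background and each peak's −log10 of p and of q. Neither counts nor depth are given, so intervals cover only the sampling of regions.

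Regions, calls and locations were computed in Python 3.11.15 with numpy 2.4.6, pandas 2.3.3 and scipy 1.17.1, with GENCODE release 44 (MANE Select, else canonical transcript), and figures were drawn with matplotlib 3.10.9. All peaks on the 22 chromosomes lay within the bounds of the reference used. A member's strength in a list was its highest peak there, ranked by −log10 p. On simulated lists the rule found 200 of 200 planted members among 10837 peaks. Named were the 10 members of highest lowest percentile, promoter members (up to 12, of which 10 existed), the 3 widest, the longest runs within 100 kb, where 4 pairs tied, and members at listed genes. The members, lists and tests were chosen with earlier results of these data known. The planned share of repeat-masked bases was not computed, since the genome used was not masked. The equal-length counts of the other patterns, the AP-1 letters and the ART3 member by CXCL11 were chosen after seeing the data. Some single genes are not reported here. P-values measure the spread between peak lists of separate clones, in which clone, library and list cannot be told apart. Alternatives were stricter peaks, equal list lengths, 50% cover, merging within 1000 bp, chromosome X, other promoter definitions and ranking columns, a replicate block and leaving out each library.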

Additional observations from a re-analysis of the deposited data

Results flagged for a closer look

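Chromosome X was outside the rule, and the comparisons above did not use it. It held 6 regions called in WT replicates 2 and 3 and KO replicate 1 only. They were 6 of 920 regions there, or 6.52 per 1000, a lower rate than the 11.2 per 1000 on chromosomes 1 to 22. None was at a promoter. Their lowest percentiles ran from 0.320 to 19.8.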

How the results depend on the processing

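The number of regions with the pattern depended on the peak threshold. It was 173 with fold enrichment of at least 4 and 76 with equal list lengths, against 338, and 254 with −log10 q of at least 3. Dropping the condition on 1 library gave 420 to 1040, with 769 without WT replicate 1, 1040 without WT replicate 2, 682 without WT replicate 3 and 526 without KO replicate 2. Of the 338, 12 overlapped a region of the pattern at fold enrichment of at least 4 and 68 at −log10 q of at least 3. The share at a promoter was 7.51% with fold enrichment of at least 4, 7.89% with equal list lengths, 5.93% with 50% cover and 8.28% with any transcript of a protein-coding gene, and 2.79% to 5.46% with 1 condition dropped. All of these stayed below the 39.1% of all regions at the main setting, which was not recomputed for the alternatives. The share on chromosome 2 was 7.89% with equal list lengths and 9.75% to 12.6% with 1 condition dropped. The median lowest percentile was 14.9 with −log10 q of at least 3, 23.1 with fold enrichment of at least 4, 13.4 with equal list lengths, 11.2 with 50% cover and 5.20 to 8.14 with 1 condition dropped. The cause was not tested, apart from the weak peaks that the stricter settings remove by construction.

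The difference of 759 bp at nearest promoters kept its direction in 13 of 13 alternatives, none of which could reach a p of 0.05. In many of them the direction was fixed in advance, because each WT value lay above each KO value. These were the settings with 1 library left out, the replicate block and the third WT clone against the KO clones. The difference was 603 to 1049 bp with 1 library left out, 1098 bp with fold enrichment of at least 4 (exact permutation p = 0.4) and 209 bp within 1 kb (exact permutation p = 0.2). With the replicate block it was 759 bp (exact permutation p = 0.25, the smallest possible). Same-numbered clones share only a number, with correlations of −0.00769, −0.0206 and 0.127.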
